A study of Mus musculus with 32 samples.

Results

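Acyline and cetrorelix, which block the receptor for gonadotropin-releasing hormone (GnRH), together lowered Cyp11a1 and Cyp17a1 in polysomes recovered from Sertoli cells, and these are transcripts best known from Leydig cells. The calls rest on both antagonists pooled. Taken singly, acyline passed the test for Cyp11a1 only and cetrorelix for neither. No transcript was called higher. The arrays described here are the 4 immunoprecipitates (IPs) of AMH-Cre: RiboTag mice that received only a GnRH antagonist, 2 after acyline and 2 after cetrorelix, out of 32 arrays in all. They were chosen by their labels, not by any measured value, and were compared with the 5 IPs of saline-treated mice of the same genotype. In a RiboTag mouse, Cre recombinase switches the ribosomal protein Rpl22 to a form with a hemagglutinin (HA) epitope, and an anti-HA antibody then pulls down the polysomes of the cells in which Cre was active. AMH-Cre is active in Sertoli cells, so that all groups compared here carry the tagged allele and the same Cre. Adult mice received either antagonist daily for 3 days. By the methods of the study, cetrorelix was given in the testosterone experiment and acyline in the FSH experiment, at different doses. Antagonist, dose, experiment and mice therefore cannot be told apart. The source label of the cetrorelix arrays calls them input samples, while their title, sample type, antibody and description call them IPs, and they were taken as IPs. Each array stands for 1 labelled sample. The methods of the study give animals as the unit behind the arrays, and no label gives a batch.

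GnRH drives the pituitary to secrete luteinizing hormone (LH) and follicle-stimulating hormone (FSH). LH acts on Leydig cells between the seminiferous tubules and maintains the enzymes that turn cholesterol into testosterone. FSH acts on the Fshr receptor of Sertoli cells, the nurse cells of the tubule, through cyclic AMP, and testosterone acts on the same cells. A GnRH antagonist therefore reduces both hormonal inputs to the Sertoli cell. The comparison asks which mRNAs leave or join Sertoli cell polysomes when these inputs are reduced, whichever antagonist was used.

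The labelled cell type was borne out by its markers. The summed signal of 20 Sertoli cell markers was 42160 to 42480 after acyline and 41780 to 44130 after cetrorelix, against 40800 to 44620 in the saline IPs and 9507 to 11490 in the inputs, the RNA of whole testis of saline mice. The saline IPs did not form a single cloud. On the second principal component of the 15 Sertoli IPs, which held 11.96% of the variance, saline replicates 1 to 3 lay between 9.07 and 15.55 and saline replicates 4 and 5 at −10.73 and −5.33. The acyline arrays (−15.42 and −8.83) lay beside the latter, and the cetrorelix arrays were spread from −2.49 to 19.98. Values against each set of saline arrays are given below where a result rests on them.

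Of 24648 probe sets tested, none rose and 6 fell at a Benjamini-Hochberg adjusted p under 0.05 and a fold of at least 1.5 in the pooled contrast of limma, which is 0.0243% of those tested and 0% in the upward direction. Without adjustment, 70 probe sets passed p and fold, and at any fold 433 (1.76%) were lower and 480 (1.95%) higher. A transcript was counted as changed alike when it was called in the pooled contrast and the mean of each antagonist lay at least 1.5-fold from saline in the same direction. That left 3 probe sets (0.0122%), all lower: Cyp11a1, Cyp17a1 and 1 probe set without a gene name. Each had all 4 antagonist arrays below all 5 saline arrays, which was the case for 105 probe sets (0.426%) of the whole table, while 184 (0.747%) had all 4 above. The acyline and cetrorelix comparisons share the saline arrays, and their values are therefore set side by side only as a description. The median standard error of the pooled log2 change was 0.0855, and for 92.3% of probe sets the 95% confidence interval lay within 1.5-fold in either direction. Precision differed between transcripts, with a standard error of 0.17 for Cyp11a1 and for Cyp17a1. Only 7 probe sets passed the adjusted p at any fold.

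Cyp11a1 encodes the side-chain cleavage enzyme that starts steroid synthesis in the mitochondrion. Its signal on the log2 scale was 7.76, 7.41, 7.29, 7.29 and 7.04 in the 5 saline IPs, 5.24 and 5.90 after acyline, and 5.57 and 6.12 after cetrorelix. The highest antagonist array thus lay below the lowest saline array, and 2 of the 4 fell to a signal under 50, the level at which a probe set was counted as present. The pooled change was −1.65 ± 0.17 (SE, 4 arrays against 5), a 3.14-fold lower signal (95% confidence interval −2.02 to −1.28, adjusted p = 0.0056, limma). With 2 antagonist arrays under that level, the size of the change is uncertain. Acyline alone gave −1.79 (adjusted p = 0.0497) and cetrorelix alone −1.51 (adjusted p = 0.065, limma), and the difference between the antagonists was 0.28 with an interval of −0.27 to 0.83. RefSeq lists 2 start sites for the gene, on chromosome 9 of GRCm38.p6. The 300 bases around each, 250 before and 50 after the start, are printed because Cyp11a1 had the largest pooled fall among named genes. Capitals in the first (chr9:57997774-57998073, plus strand) mark the complement of TGACG, the short form of the cyclic AMP response element, 50 bases before the start, and capitals in the second (chr9:58014702-58015001, plus strand) mark AGGTCA, the core bound by NR5A receptors such as steroidogenic factor 1, 28 bases before it.
Cyp11a1, first start site: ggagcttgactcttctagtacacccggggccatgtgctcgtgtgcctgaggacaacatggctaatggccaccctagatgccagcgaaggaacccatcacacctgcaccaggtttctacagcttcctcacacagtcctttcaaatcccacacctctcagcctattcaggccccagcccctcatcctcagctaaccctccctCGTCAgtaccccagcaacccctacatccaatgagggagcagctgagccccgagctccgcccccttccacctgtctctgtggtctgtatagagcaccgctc
Cyp11a1, second start site: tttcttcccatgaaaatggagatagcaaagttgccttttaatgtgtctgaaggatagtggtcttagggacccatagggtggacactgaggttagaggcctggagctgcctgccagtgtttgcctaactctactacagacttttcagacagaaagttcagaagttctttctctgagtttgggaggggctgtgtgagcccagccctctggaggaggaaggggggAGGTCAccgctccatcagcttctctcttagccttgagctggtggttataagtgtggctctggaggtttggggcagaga
On both strands, TGACG occurs in 20.8% of the 32851 RefSeq promoter windows of this length and AGGTCA in 16.3%. The full element TGACGTCA, held by 1.79% of all windows, and the steroid receptor core AGAACA, held by 19%, were found in neither. These matches are letters in a window, and binding was not measured.

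Cyp17a1 encodes the 17-hydroxylase and lyase that leads from progestins to androgens. The saline IPs gave 9.55, 9.15, 9.21, 9.44 and 9.25 on the log2 scale, the acyline IPs 7.54 and 8.07, and the cetrorelix IPs 7.73 and 8.09. The groups did not overlap, and the gap between the lowest saline and the highest antagonist array was larger than the range of the saline arrays. The pooled change was −1.46 ± 0.17 (SE, 95% confidence interval −1.82 to −1.09), 2.75-fold lower (adjusted p = 0.014, limma). Acyline gave −1.51 (adjusted p = 0.069) and cetrorelix −1.41 (adjusted p = 0.093, limma), so that neither passed alone. The pooled call was lost when saline replicate 4, acyline replicate 1 or cetrorelix replicate 1 was left out (adjusted p = 0.053, 0.115 and 0.080, limma). Cyp11a1 stayed past the threshold without any single one of the 9 arrays. With only the 9 arrays in the fit as 3 groups, however, Cyp11a1 lost its call (adjusted p = 0.060) and Cyp17a1 kept it (adjusted p = 0.024, limma). Both lost it with an ordinary contrast without moderated variances (adjusted p = 0.090 for Cyp11a1 and 0.15 for Cyp17a1).

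Star encodes the protein that carries cholesterol to the inner mitochondrial membrane, the step before Cyp11a1. It measured 8.34, 8.03, 8.12, 8.35 and 8.0 in the saline IPs, 7.38 and 7.35 after acyline, and 7.70 and 7.5 after cetrorelix. Again no antagonist array reached the saline range. The pooled change of −0.69 ± 0.09 (SE) passed the threshold (1.61-fold lower, adjusted p = 0.026, limma), but with cetrorelix alone the fold was 1.48, just short of the 1.5 required, so that Star was called in the pooled contrast and not counted among the transcripts changed alike. The call for Star was lost when any of 7 of the 9 arrays was left out (adjusted p = 0.061 to 0.18), all but saline replicates 2 and 5, and with only the 9 arrays in the fit (adjusted p = 0.22 with 3 groups, limma).

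**Figure D1:**
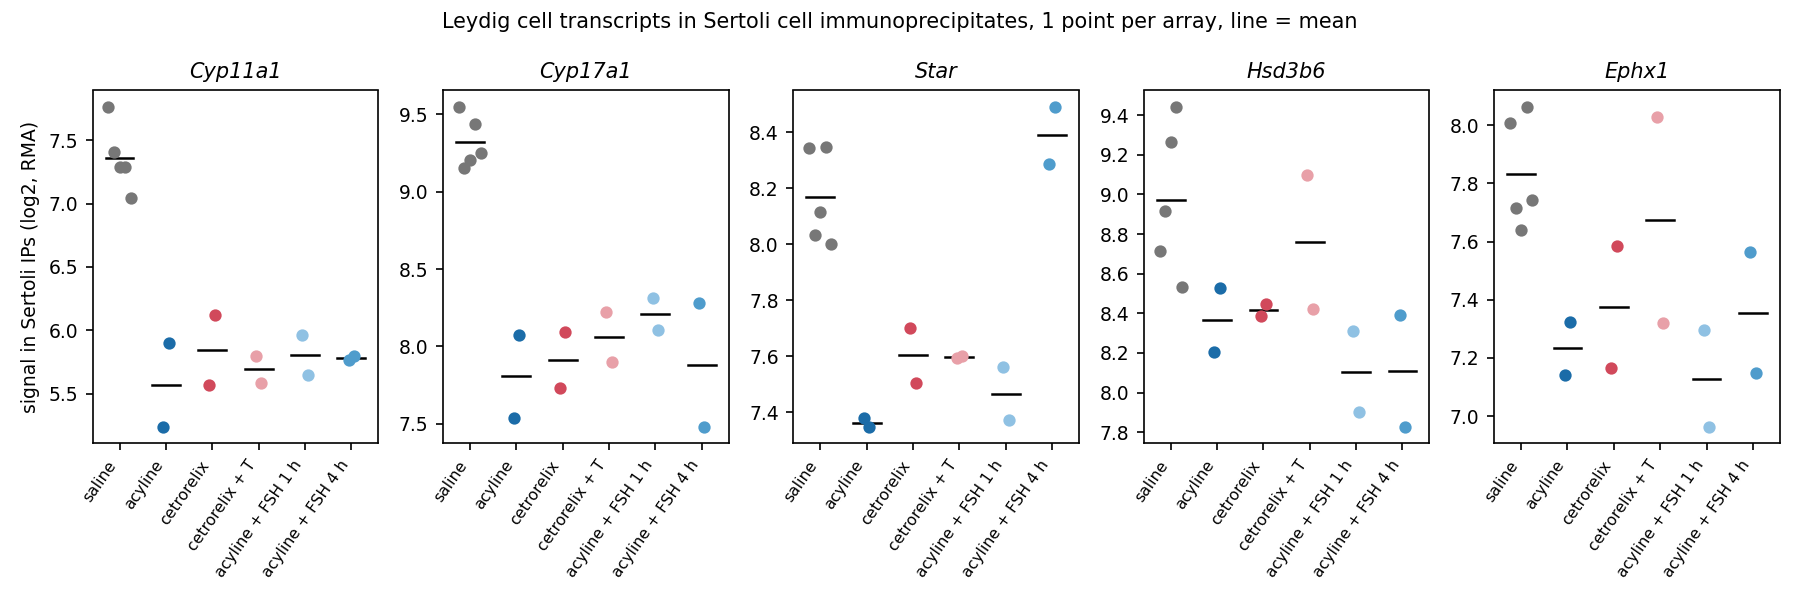
Signal of Leydig cell transcripts (log2, RMA) in each Sertoli IP by treatment, with 1 point per array and a line at the group mean. For Cyp11a1 and Cyp17a1, every array of an antagonist group, with or without hormone, lies below every saline array.

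No other Leydig cell marker passed the test. Of the 12 on the list, 3 were called, against 0.0243% of all probe sets, and 10 had a negative change, with a median of −0.23 against 0.0022 over all probe sets tested. Of the 12, 5 had all antagonist arrays below the saline range, against 0.426% of all probe sets, namely the 3 above, Hsd3b6 and Ephx1. The list was drawn up with earlier results of these data known, so these counts and the median describe it and test nothing. Hsd3b6, the 3-beta-hydroxysteroid dehydrogenase of adult mouse Leydig cells, measured 8.53 to 9.44 in the saline arrays (median 8.91), 8.21 and 8.53 after acyline, and 8.39 and 8.45 after cetrorelix, a change of −0.58 ± 0.21 (SE) that missed the threshold (adjusted p = 1, limma). Ephx1, microsomal epoxide hydrolase, measured 7.64 to 8.06 after saline, 7.14 and 7.33 after acyline, and 7.16 and 7.58 after cetrorelix (−0.53 ± 0.16, adjusted p = 1, limma). The highest antagonist array came within 0.1 of the lowest saline array for each. Hsd17b3, which makes testosterone from androstenedione, differed by −0.25 with an interval of −0.55 to 0.06. Hsd3b1, another 3-beta-hydroxysteroid dehydrogenase, differed by 0.10 (−0.24 to 0.44), with −0.16 for acyline and 0.35 for cetrorelix. Lhcgr, the LH receptor, averaged 5.37 after saline and 5.34 after antagonist, under the signal of 50 (5.64 on this scale) in all 4 antagonist arrays and in 3 of the saline arrays, where a fall could not be measured. Tspo and Cyb5a, which are placed on the Leydig list but were enriched 2.97-fold and 2.82-fold in the Sertoli IPs over input, differed by 0.04 and −0.03.

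By their ratio of IP to input these transcripts were depleted from Sertoli polysomes. The ratio of saline IP to input was 0.192 for Cyp11a1, 0.214 for Cyp17a1 and 0.382 for Star in AMH-Cre mice. It was 8.34, 3.32 and 10.1 in the IPs of Cyp17iCre: RiboTag mice, in which the tag is switched on in Leydig cells. The paper identifies scattered tagged cells in the tubules of that line as Sertoli cells. There the 20 Sertoli cell markers summed to 19000 to 20160 in the saline IPs and 10440 to 10950 in the inputs. In the AMH-Cre IPs, other Leydig markers moved in part with Cyp11a1, Cyp17a1 and Star. Summed over the 12 markers, the linear signal was 3433 to 3439 after acyline and 3576 to 3579 after cetrorelix, below the saline range of 3798 to 4813. Without Cyp11a1, Cyp17a1 and Star the remaining 9 markers summed to 2947 to 3043 and 3055 to 3108, against 3375 to 3665 in saline replicates 1 to 4 and 2803 in saline replicate 5. Leaving out Tspo and Cyb5a as well, the last 7 summed to 1149 to 1193 after acyline and 1187 to 1296 after cetrorelix, against 1441 to 1825 in saline replicates 1 to 4 and 1175 in saline replicate 5. The antagonist arrays thus lay below all saline arrays but replicate 5. The part of Leydig cell RNA in the fall of Cyp11a1, Cyp17a1 and Star was not tested. In the Leydig IPs themselves the 12 markers summed to 61510 to 64090 after saline and 48590 to 51270 after acyline. In RNA of a pulled-down pool, fewer contributing cells of a type and less RNA in each of them cannot be told apart.

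A wider set of Leydig transcripts gave a smaller shift. Among 393 genes with a Leydig IP at least 5-fold over input, 216 (55%) had a negative change in the Sertoli IPs after antagonist, with a median of −0.015. Over all 15592 genes with a single symbol, 46.5% were negative and the median was 0.0063. Of the 393, Cyp11a1 and Star were called and 5 lay below the saline range, against 4 called and 58 below the range among all 15592. The 11 genes that fell in the Leydig IPs after acyline had a median of −0.11 in the Sertoli IPs, with 9 negative and none called. Lcat, which esterifies cholesterol in plasma lipoproteins, changed by −2.52 in the Leydig IPs (adjusted p = 0.0082, limma). Its change in the Sertoli IPs was −0.02, at a mean signal of 5.73 after saline, close to the limit of 50.

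The change of the same transcripts was also measured in the IPs of the Leydig line. In the Leydig IPs, after 4 days of acyline (2 arrays against 3 saline), Cyp11a1 differed by −0.83 ± 0.15 (SE, adjusted p = 0.082), Cyp17a1 by −0.26 ± 0.11 (adjusted p = 0.34) and Star by −0.61 ± 0.16 (adjusted p = 0.17) in limma. The contrast of contrasts gave a difference, Sertoli minus Leydig, of −0.82 (95% interval −1.38 to −0.27, adjusted p = 0.31) for Cyp11a1 and −1.20 (−1.72 to −0.67, adjusted p = 0.063) for Cyp17a1, so that neither difference between the cell types passed the threshold. For Star it was −0.08 (−0.45 to 0.29). Across 25399 probe sets, 46 (0.181%) passed this contrast, 25 with a higher and 21 with a lower value in Sertoli cells. Scarb1, the receptor that takes up cholesterol from high-density lipoprotein, was called among the former, at 1.92 (1.45 to 2.40, adjusted p = 0.00079). It fell by 2.02 in the Leydig IPs (adjusted p = 0.033) and differed by −0.10 (−0.22 to 0.02) in the Sertoli IPs, where its mean was 11.4 after saline. The length of treatment and the mice differ between the lines along with the cell type, and these cannot be told apart. The Leydig IPs also hold RNA of some Sertoli cells, as given above.

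**Figure D2:**
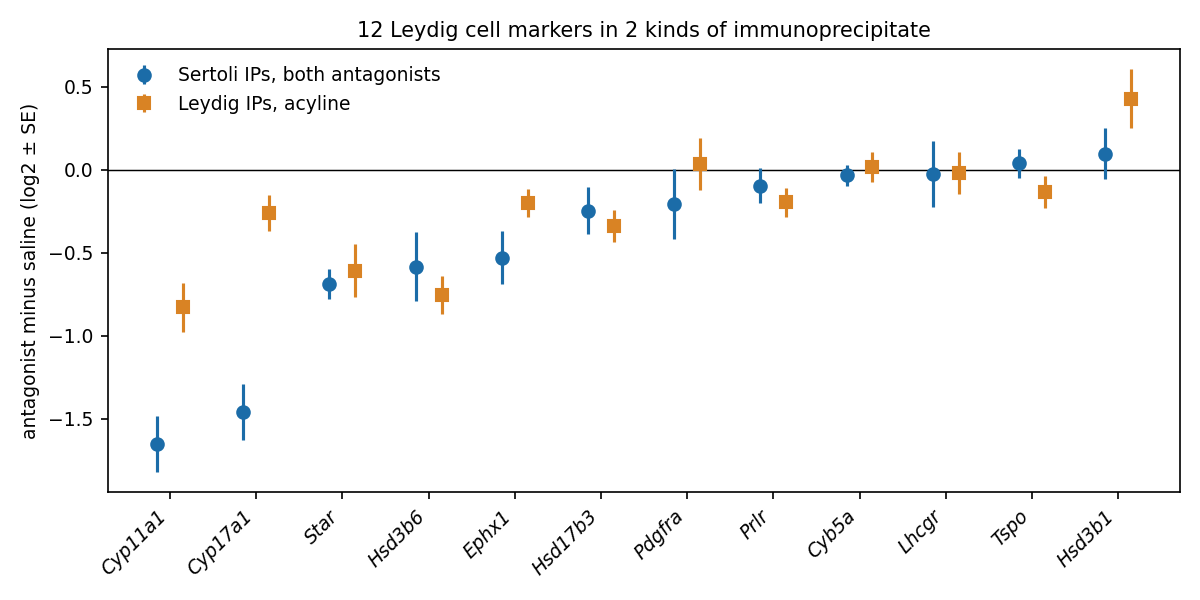
Change after antagonist (log2, mean ± SE) of the 12 Leydig cell markers in Sertoli IPs (circles, both antagonists together, 4 arrays against 5) and in Leydig IPs (squares, acyline, 2 against 3). Cyp17a1 moved by −1.46 in the Sertoli IPs and by −0.26 in the Leydig IPs.

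A further 6 Sertoli IPs came from mice given an antagonist and then a hormone. The pooled contrast gave them no weight, but they were part of the fit that supplied its standard errors. Cyp11a1 measured 5.80 and 5.59 after cetrorelix and testosterone, 5.96 and 5.65 at 1 h of FSH after acyline, and 5.77 and 5.80 at 4 h. All 6 lay below the lowest saline array of 7.04. Cyp17a1 likewise measured 7.48 to 8.31 in these arrays, below the saline minimum of 9.15. Neither hormone brought a change past the threshold in either transcript: testosterone against cetrorelix gave −0.15 for Cyp11a1 and 0.15 for Cyp17a1, and 4 h of FSH against acyline gave 0.22 and 0.07. Star behaved otherwise. It measured 7.59 and 7.60 with testosterone and 7.56 and 7.37 at 1 h of FSH, but 8.29 and 8.49 at 4 h of FSH, inside or above the saline range of 8.0 to 8.35. The rise over acyline alone was 1.03 (adjusted p = 0.029, limma).

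Sertoli cell transcripts that respond to FSH or androgen gave no call after antagonist. No member of the lists of Sertoli cell functions described next was called, against 0.0243% of all probe sets. At the 1 probe set used for each gene, every measured member had a 95% interval within 1.5-fold, against 98.8% of all genes. Neither count sets these lists apart from all genes. A second probe set of Pde4d, given below, is not counted here. Fshr itself averaged 9.10 after saline and 9.17 after antagonist (0.06, interval −0.16 to 0.29). Among the 17 measured receptor and cyclic AMP genes, 12 were above 0 with a median of 0.068. The CREB coactivators Crtc1 and Crtc2 were higher by 0.16 and 0.19, again without passing adjustment.

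Of 18 measured transcripts known to respond to FSH or cyclic AMP, 10 were below 0, with a median of −0.0094. Pde4d, the phosphodiesterase that FSH induces in rat Sertoli cells, averaged 8.67 after saline and 8.37 after antagonist, a difference of −0.30 (95% interval −0.55 to −0.05). A second Pde4d probe set read 6.89 and 6.39, with all 4 antagonist arrays below the saline range (−0.50 ± 0.11 SE), and neither passed adjustment (adjusted p = 1, limma). Trf, the transferrin that Sertoli cells secrete, differed by −0.05 after acyline and by −0.53 after cetrorelix. Inha, the inhibin alpha subunit, differed by −0.12 and Inhbb, a beta subunit, by 0.07. The 8 androgen-responsive transcripts had a median of 0.0095: Rhox5, a homeobox gene under direct androgen control in Sertoli cells, averaged 9.52 and 9.53 (0.01, interval −0.23 to 0.25), Eppin, a protease inhibitor, differed by 0.07 and Drd4, a dopamine receptor, by −0.21 (interval −0.44 to 0.01).

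Ligands of the germ cell niche kept their level within the error, with 0.03 for Gdnf, −0.03 for Kitl and a median of 0.021 over 12 measured genes. The 19 measured junction genes of the blood-testis barrier had a median of −0.012, with −0.01 for the claudin Cldn11. Glycolysis and lactate export, with which Sertoli cells feed germ cells, had a median of −0.0034 over 18 genes, with 0.01 for Ldha and −0.06 for the glucose transporter Slc2a1. The 21 measured genes of cholesterol synthesis and uptake had 16 below 0 and a median of −0.033. Among immediate early genes, Jun was higher by 0.30 with each antagonist (adjusted p = 1, limma), its antagonist arrays (7.28 to 7.65) overlapping the saline arrays (7.02 to 7.37). The remaining lists had medians of 0.040 (9 targets shared by glucocorticoids and androgens), 0.030 (16 genes of inhibin, activin and AMH), 0.032 (11 of retinoid handling), −0.0026 (16 of the circadian clock) and −0.041 (5 of the interferon response).

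**Figure D3:**
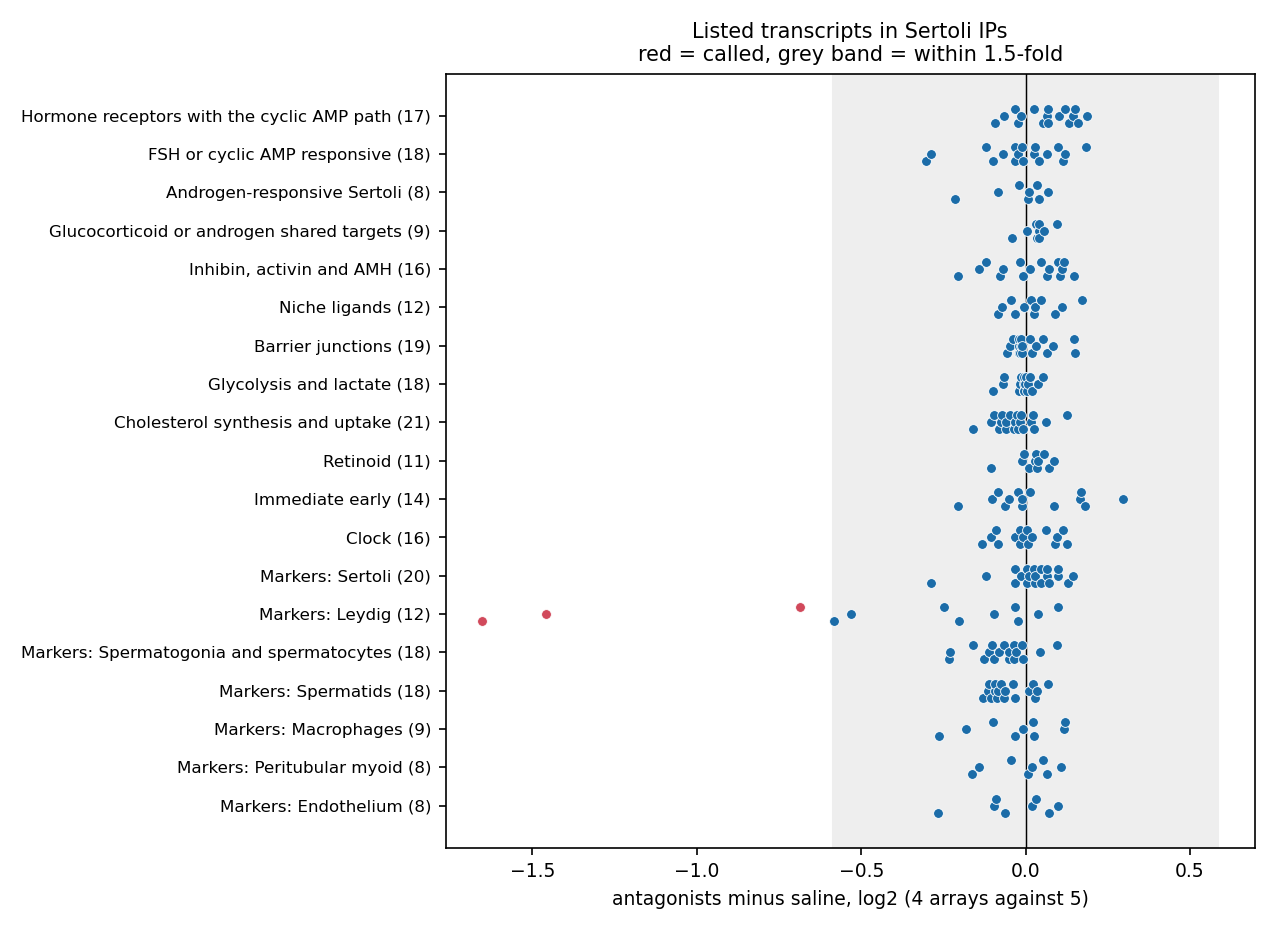
Pooled change (log2, 4 antagonist arrays against 5 saline arrays) of each measured gene in the lists shown, 1 point per gene, with the number measured in brackets. The lists of interferon response, red cell markers and ribosomal proteins are not shown. The grey band spans 1.5-fold in either direction, and the called genes (red) are the 3 Leydig cell transcripts Cyp11a1, Cyp17a1 and Star.

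The transcripts most enriched in Sertoli cells gave no call. Chosen on the 6 hormone-treated IPs against input, 254 genes enriched at least 5-fold included none that was called, against 4 of all 15592 genes. For 253 of them (99.6%) the interval lay within 1.5-fold, against 98.8% of all genes. Neither count sets these genes apart from all genes. Those 6 IPs also come from antagonist-treated mice, so that the choice partly fixes the direction of small shifts, and none is read from it. Among markers of spermatogonia and spermatocytes, 16 of 18 were below 0 with a median of −0.059, and none was called. Their summed signal was 14100 to 15450 after saline, 14170 to 14920 after acyline and 12640 to 14740 after cetrorelix. The groups overlapped. Spermatid markers had 13 of 18 below 0, a median of −0.071 and none called, and their sums overlapped as well (34760 to 41220, 37380 to 39570 and 36580 to 39510).

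Zc3h13, part of the complex that writes N6-methyladenosine on RNA, was the only probe set to pass the adjusted p and miss the fold. It measured 8.03, 7.87, 7.97, 8.03 and 7.86 after saline, 8.37 and 8.42 after acyline, and 8.31 and 8.40 after cetrorelix. All 4 antagonist arrays were above the saline range, by a pooled 0.42 ± 0.06 (SE, 1.34-fold, adjusted p = 0.027, limma), with 0.44 for acyline and 0.40 for cetrorelix. The adjusted p was above 0.05 in each of the 9 fits that left out an array (0.054 to 0.20) and with only the 9 arrays in the fit (0.25 with 3 groups, limma), while the change stayed between 0.40 and 0.45. In the arrays with hormone it stood at 8.19 and 8.25 with testosterone and 8.35 and 8.38 at 4 h of FSH, but at 7.80 and 7.92 at 1 h of FSH, within or just below the saline range.

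Pyroxd2, an oxidoreductase-like protein, was called in the pooled contrast (−1.03 ± 0.08 SE, adjusted p = 0.00028, limma) and yet was not changed alike. It measured 7.88 to 8.25 after saline and 7.92 and 7.95 after acyline, but 6.14 and 5.99 after cetrorelix. It was the only probe set (0.00406%) that differed between the cetrorelix and acyline arrays, by −1.87 (95% interval −2.12 to −1.63, adjusted p = 2.8e-05, limma). The 2 antagonists belong to different experiments, and these cannot be told apart. The hormone arrays fell at the same 2 levels, 8.13 and 8.17 with testosterone after cetrorelix, 8.04 and 8.02 at 1 h of FSH after acyline, and 6.07 and 6.05 at 4 h. A pooled mean near 7.0 thus describes none of the 4 antagonist arrays.

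**Figure D4:**
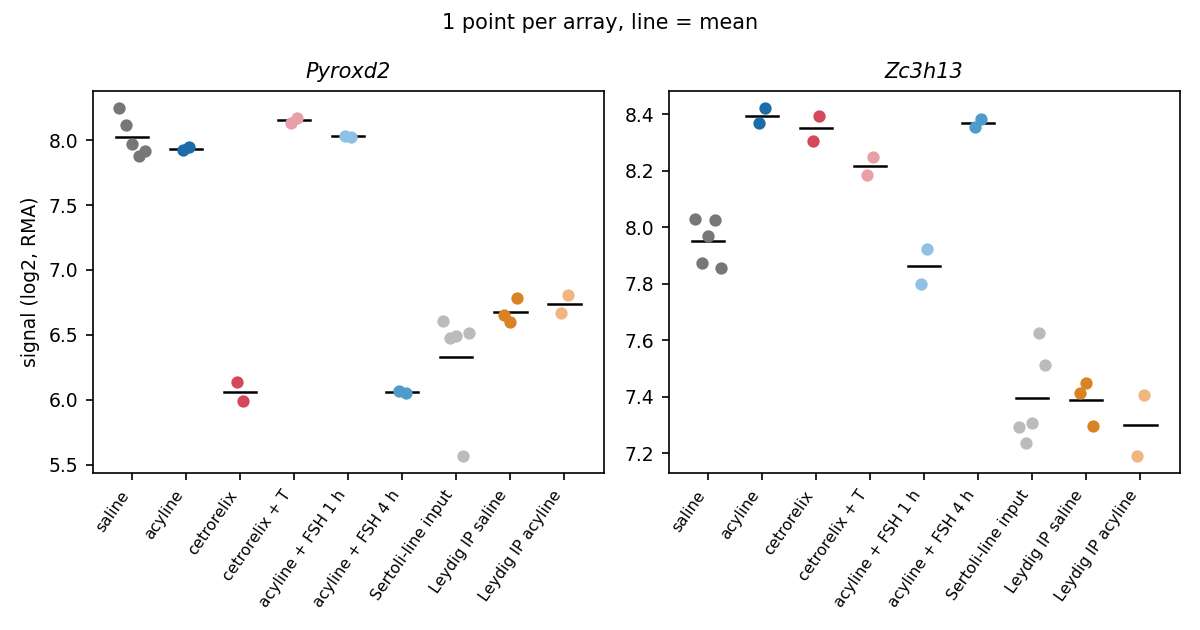
Signal (log2, RMA) of Pyroxd2 and Zc3h13 in single arrays by group (Sertoli IPs by treatment, with T for testosterone, then the inputs of the same line and the Leydig IPs), with a line at the group mean. Pyroxd2 lies near 8 after saline and acyline and near 6 after cetrorelix, and the antagonist arrays of Zc3h13 (8.31 to 8.42) all lie above the saline arrays.

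The unnamed probe set changed alike measured 5.34 to 5.84 after saline, 4.74 and 4.99 after acyline, and 3.86 and 4.49 after cetrorelix (−1.03 ± 0.14 SE, adjusted p = 0.026, limma). All 4 antagonist arrays were under the signal of 50, as were 3 of the saline arrays, and its size is therefore uncertain. The call was lost when any array but cetrorelix replicate 2 was left out (adjusted p = 0.057 to 0.20, limma). Another unnamed probe set fell by 0.70 and missed the fold with acyline alone (−0.55). Apart from these, 13 higher and 21 lower probe sets met the fold with each antagonist and missed the adjusted p. Only 2 of them carry a single gene symbol. Vav2, a guanine nucleotide exchange factor, measured 9.14 to 10.06 after saline, 10.05 and 7.85 after acyline, and 7.75 and 10.06 after cetrorelix, so that 1 array of each antagonist gave its mean change of −0.71 (adjusted p = 1, limma). The uncharacterised 1810037I17Rik had a change of −0.68 (adjusted p = 1, limma), with overlapping groups.

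Because saline replicates 1 to 3 and 4 to 5 stood apart, each antagonist was also set against a different saline set, so that the comparisons shared no array. With acyline against replicates 1 to 3 and cetrorelix against replicates 4 and 5, Cyp11a1 differed by −1.92 and −1.32 and Cyp17a1 by −1.50 and −1.43. With the sets exchanged, Cyp11a1 differed by −1.59 and −1.64 and Cyp17a1 by −1.53 and −1.39. In both arrangements each single fold of these 2 transcripts met 1.5-fold. Any split of the saline arrays had to give this, because every antagonist array lay more than 1.5-fold below every saline array. The pooled p in the rule came from the same test both times, against all 5 saline arrays, so it was not repeated. Of the 8 single comparisons, however, only Cyp11a1 with acyline against replicates 1 to 3 passed the adjusted p (0.038), and the others had 0.077 to 0.60 in limma. Taken against saline replicates 4 and 5 alone, the pooled changes were −1.46 for Cyp11a1 and −1.48 for Cyp17a1, and neither passed the test (adjusted p = 0.38 and 0.43, limma). Against saline replicates 1 to 3 alone, Cyp17a1 again did not pass (−1.44, adjusted p = 0.12, limma).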

How the data were processed

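Polysome-bound RNA was hybridised to Affymetrix Mouse Gene 1.0 ST arrays. The deposited values are log2 signals per probe set after RMA normalization by the authors, in which a difference of 1 is a 2-fold change. No RMA version was found in the sources used here. Of 35556 probe sets, 21789 name 1 gene in the platform annotation, 1621 several and 12146 none, and 141 of the last were named from the enrichment lists of the study.

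The 15 Sertoli IPs were fitted as 6 groups with limma 3.58.1 in R 4.3.3 (9 residual degrees of freedom). Probe sets with a linear signal over 50 in at least 1 array were tested (24648), and the Benjamini-Hochberg method adjusted over all of them. Transcripts were called at an adjusted p below 0.05 with a 1.5-fold difference between IPs, or 2-fold for IP against input. The pooled contrast weighted acyline and cetrorelix equally. The difference between cell types was fitted over all IPs of both Cre lines. For a gene with several probe sets, that with the highest mean was used.

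Genes named are those changed alike, those that met both folds and missed only the adjusted p, members of the lists, and other called transcripts, the last chosen after their values were seen. Members and lists were chosen with earlier results of these data known. The motif AGGTCA was added after seeing the data. In simulated data of 24201 probe sets, 45 of 49 changes of 1.75-fold and 49 of 49 changes of 3-fold were called, with 1 false call. The same data also held 49 changes of 2-fold and 48 of 4-fold. These counts hold for the simulated data only. The share of changes found in the real arrays, where 6 probe sets were called, was not tested. Alternatives varied the filter, scaling, variance model, arrays in the fit, saline set, fold threshold, replicate block and array weights, and left out each array in turn. Sums of Leydig markers without single genes were added after seeing the data. Promoters are from RefSeq. The number of arrays limits the precision.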

Additional observations from a re-analysis of the deposited data

Results flagged for a closer look

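Pyroxd2 differed between the antagonists by −1.87 (cetrorelix minus acyline) and between the cell types by −1.09 (change in the Sertoli IPs minus change in the Leydig IPs, adjusted p = 0.0019, limma), and both differences were tested. The second pools cetrorelix with acyline in the Sertoli IPs, while the Leydig IPs had acyline only: with acyline alone the change was −0.09 in Sertoli and 0.06 in Leydig IPs. Pyroxd2 was higher by 2.09 with testosterone after cetrorelix than with cetrorelix alone (adjusted p = 7.8e-06, limma). At 4 h of FSH after acyline it differed from acyline alone by −1.88 (adjusted p = 2.7e-05, limma). Each of these groups held 2 arrays, and the cause of the differences was not tested.

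A single array stood far from the others of its group in 2 of the 46 groups of values examined, and chance alone picks out about 1 group in 20. For Fshr it was the highest antagonist array, cetrorelix replicate 1 at 9.48 against 9.04 to 9.08 in the others, with a gap of 0.893 of the range. For 1810037I17Rik it was saline replicate 1 at 6.89 against 5.82 to 6.05, with a gap of 0.789 of the range.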

How the results depend on the processing

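Against 6 calls in the pooled contrast, the count was 3 with only the 9 arrays as 3 groups, 1 with them as 2 groups, 1 with saline replicates 4 and 5 only, 1 with an ordinary contrast without moderated variances and 52 at its unadjusted p. The 3 transcripts changed alike became 1 with the 9 arrays as 3 or as 2 groups (Cyp17a1), 0 with the ordinary contrast, 19 at its unadjusted p (7 higher), 0 with saline replicates 4 and 5 only and 6 at a lower fold threshold. The single call for acyline became 0 without a filter, after median centring, after quantile normalization, with the ordinary contrast, with the 9 arrays, without the FSH 1 h arrays and with saline replicates 4 and 5, but 8 with saline replicates 1 to 3, 4 with array weights and 113 at the unadjusted p. The 3 calls for cetrorelix became 1 without a filter, with the ordinary contrast, with the 9 arrays, without the FSH 1 h arrays, with saline replicates 4 and 5 and with array weights, and 95 at the unadjusted p. The single call between the antagonists became 2 with the 9 arrays and 178 at the unadjusted p. Replicate numbers did not pair the samples (correlations of deviations −0.18 to 0.15). With a replicate block the counts were 1 (pooled), 0 (acyline), 0 (changed alike) and 13 (the contrast of cell types, 46 without it). Leaving out each array in turn gave 2 to 6 pooled calls, 0 to 2 for acyline, 1 to 4 for cetrorelix, 1 to 2 between the antagonists, 1 to 4 changed alike and 16 to 77 in the contrast of cell types. The causes were not tested. Over all settings the pooled change stayed between −1.88 and −1.46 for Cyp11a1, −1.59 and −1.33 for Cyp17a1, and −0.74 and −0.64 for Star, and the adjusted p ranged from 0.0025 to 0.38 for Cyp11a1. No direction reversed among these results. The testosterone effect could not be given after median centring, since no transcript was then called with acyline. A fit with equal weights for both saline sets was added after seeing the data.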

Other observations

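Of 8 measured endothelial markers 1, and of 9 measured macrophage markers 1, lay below the saline range in all 4 antagonist arrays. Neither passed adjustment, and 0.426% of all probe sets lay below the range. Eng, the endothelial co-receptor endoglin, averaged 6.70 after saline and 6.43 after antagonist (−0.27, adjusted p = 1, limma), and Cd68, a lysosomal protein of macrophages, averaged 5.79 and 5.52 (−0.26, adjusted p = 1, limma). The antagonist mean of Cd68 was under the signal of 50 (5.64 on this scale). Neither list moved as a whole: 4 of 8 measured endothelial markers and 5 of 9 measured macrophage markers were below 0. The summed macrophage signal was 2362 to 2550 after saline, 2449 to 2632 after acyline and 2261 to 2338 after cetrorelix. Gata4, a transcription factor of testicular somatic cells, and Id2, an inhibitor of basic helix-loop-helix factors, were above the saline range in all 4 arrays, by 0.13 and 0.18 (adjusted p = 1, limma). Of all probe sets, 0.747% lay above the range. The 53 cytosolic ribosomal protein genes had a median of −0.010 with none called. For 51 of them (96.2%) the interval lay within 1.5-fold, against 98.8% of all genes with a single symbol.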
